A study of Mus musculus with 20 samples.

Results

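The cytosolic ribosomal protein genes encode the proteins of the large and small subunits of the ribosome that translates nuclear messages. They were chosen by symbol in the deposited expression table: Rpl, Rps or Rplp followed by digits and at most 1 letter, plus Rpsa. Pseudogene copies named with -ps, paralogs with an l after the number and the Rps6k kinases were left out. The rule found 76 of the 46939 listed genes, of which 43 belong to the large subunit, 30 to the small subunit and 3 to the stalk. Rps3a1 has a digit after its letter and fell outside the rule. All 76 passed the filter on low values, a mean of at least 1 FPKM, and were among the 12035 genes tested. FPKM is fragments per kilobase of transcript, scaled to the mapped fragments of the library.

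The RNA came from mouse embryonic stem cells of 129 background, which were either wild type (WT) or without functional Tdg (TDG KO), with 2 libraries of each genotype. TDG is a glycosylase that excises oxidised forms of methylcytosine, and the question of the series was how carboxylcytosine bears on binding of the chromatin factor CTCF. Both genotypes were kept on arrested embryonic fibroblasts in serum and LIF, and the fibroblasts were removed by serial plating before use. The labels name neither separate cultures nor separate clones, so each genotype may be a single line, and the p-values rest on library-to-library spread that may be technical. CTCF chromatin immunoprecipitation covered 2 libraries of each genotype. In WT, Tdg was at 28.1 and 30.4 FPKM, and in TDG KO it kept 5.50 and 4.74 FPKM, a log2 change of -2.31 ± 0.09 (SE; limma, Benjamini-Hochberg adjusted p = 9.2e-06).

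Every ribosome carries 1 copy of almost every one of these proteins, bound to ribosomal RNA, and the stalk proteins form a flexible arm that recruits elongation factors. The messages are among the most abundant of a growing cell. Most begin with a C followed by a run of pyrimidines, the terminal oligopyrimidine tract, through which mTORC1 and Larp1 control their translation. Many of the genes also have numerous processed pseudogene copies in the mouse genome.

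The bases around the starts of the members that changed most are shown first, because this stretch holds the pyrimidine tract. RefSeq's promoter table for GRCm38.p6, the assembly called mm10, had entries for 56 of the 76 members, with 66 promoters in all. Of the 5 members called higher and the 8 lowest called members, Rpl36, Rplp1, Rpl32, Rpl30 and Rps20 had no entry. Rpl35 and Rpl7a were added after the sequences were seen, as members with long runs. Each window of 50 bases reads 5′ to 3′, with the annotated start at base 26, and capitals mark its longest unbroken run of C and T. For Rps24 and Rpl19, which have more than 1 annotated start, 1 start is shown.
Rpl39, chrX:37085198-37085247, minus strand: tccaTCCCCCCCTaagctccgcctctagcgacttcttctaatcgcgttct
Rps27, chr3:90213624-90213673, minus strand: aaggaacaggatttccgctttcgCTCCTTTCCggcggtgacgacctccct
Rpl36a, chrX:134585629-134585678, plus strand: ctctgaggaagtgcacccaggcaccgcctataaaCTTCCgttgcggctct
Rps24, chr14:24490653-24490702, plus strand: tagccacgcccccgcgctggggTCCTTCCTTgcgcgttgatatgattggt
Rps28, chr17:33824538-33824587, minus strand: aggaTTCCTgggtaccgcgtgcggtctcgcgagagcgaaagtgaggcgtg
Rps4x, chrX:102189367-102189416, minus strand: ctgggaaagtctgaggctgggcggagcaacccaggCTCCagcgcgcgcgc
Rpl19, chr11:98026899-98026948, plus strand: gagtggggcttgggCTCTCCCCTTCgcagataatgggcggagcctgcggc
Rpl26, chr11:68901541-68901590, plus strand: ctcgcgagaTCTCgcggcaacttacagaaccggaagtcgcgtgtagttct
Rpl35, chr2:39005107-39005156, minus strand: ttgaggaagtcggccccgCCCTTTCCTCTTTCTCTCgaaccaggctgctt
Rpl7a, chr2:26910782-26910831, plus strand: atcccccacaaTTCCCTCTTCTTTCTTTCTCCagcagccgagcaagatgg

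Pyrimidine runs at the start were more common among the members than in the whole promoter table. Runs of at least 8 C or T were counted if they lay over the annotated start or ended at the base before it. They were in 27.3% of the members' promoters and in 5.32% of all 32851 promoters. Within 50 bases on either side of the start, a wider stretch than the windows shown, the longest run was also measured. It reached at least 10 bases in 71.2% of the members' promoters and in 18.1% of all, a measure chosen after the sequences were seen. In Rpl35 the run over the start was 18 bases and in Rpl7a it was 21, whereas in Rpl26 the longest run of the window shown was 4 bases. Annotated starts can lie some bases away from the start used in these cells, so a short run here says only what the annotated window holds.

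Other motifs were searched on both strands of the 300-base promoters, which span 250 bases before the start and 50 after it. CCGGAAG, the core bound by ETS factors, was in 36.4% of the members' promoters and in 8.86% of all. AAGATGG, the YY1 core, was in 16.7% against 6.34%. The E-box CACGTG was in 12.1% against 7.15%, and TATAAA was in 9.09% against 13.6%. A match is a description of the letters and not a bound site. Changes in TDG KO cells were set beside these features as a description, without a test. In 18 members a run of at least 8 lay over a start or ended at the base before it. Their median log2 change was -0.27, with 1 called higher and 10 lower. The 38 with an entry but no such run had -0.27, with 1 higher and 21 lower. With CCGGAAG, the median was -0.26 in 23 members, and without it -0.34 in 33. The 6 members with TATAAA, which include Rpl39 and Rpl36a, had a median of -0.41, and 5 of them were called lower. The 50 without it had -0.26, with 2 called higher and 26 lower.

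In TDG KO cells 39 of the 76 ribosomal protein messages fell and 5 rose, while 32 did not pass the test (limma, Benjamini-Hochberg adjusted p under 0.05). The members' median log2 change, TDG KO over WT, was -0.26, and their changes ran from -0.74 to 0.55. Over all 12035 tested genes the median was -0.04, and 54% were called, 24.4% higher and 29.5% lower. Among the members 51.3% were called lower and 6.58% higher, so the share called in either direction, 57.9%, was near that of all genes while the split between the directions was not. The sign was negative in 64 members and positive in 12. Both TDG KO libraries lay below both WT libraries in 50 members, 65.8% against 43.6% of all tested genes, and above both in 10, against 35.1%. The libraries of the genotypes overlapped in the other 16 of 76, and in 2556 of the 12035 tested genes. Members were thus apart about as often as tested genes in general. In bulk RNA, a smaller share of a cell type and less message per cell cannot be told apart.

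The number of calls depended on the filter and on having both WT libraries. With 1 WT library left out, each gene's own spread came from the TDG KO pair alone. Without WT replicate 1 the test called 2 members, without WT replicate 2 it called 1, and without a filter on FPKM it called 4. Over all genes the same fits called 40.6%, 40.0% and 25.8%, so the members' share was then far below that of all genes. Without TDG KO replicate 1 the members called lower numbered 24. The median stayed between -0.32 and -0.18 in these fits with a library left out. Rpl39 was the 1 member called in every one of 12 alternative fits. In the authors' deposited table, 2 of the 76 members were significant and higher (Rpl36 and Rplp1) and 12 significant and lower. Among its 16262 tested genes, which had no filter on FPKM here, 15.3% were higher and 12.1% lower. Of the 12035 genes tested here, 1797 were significant there and higher here, and 1680 significant there and lower here.

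**Figure D1:**
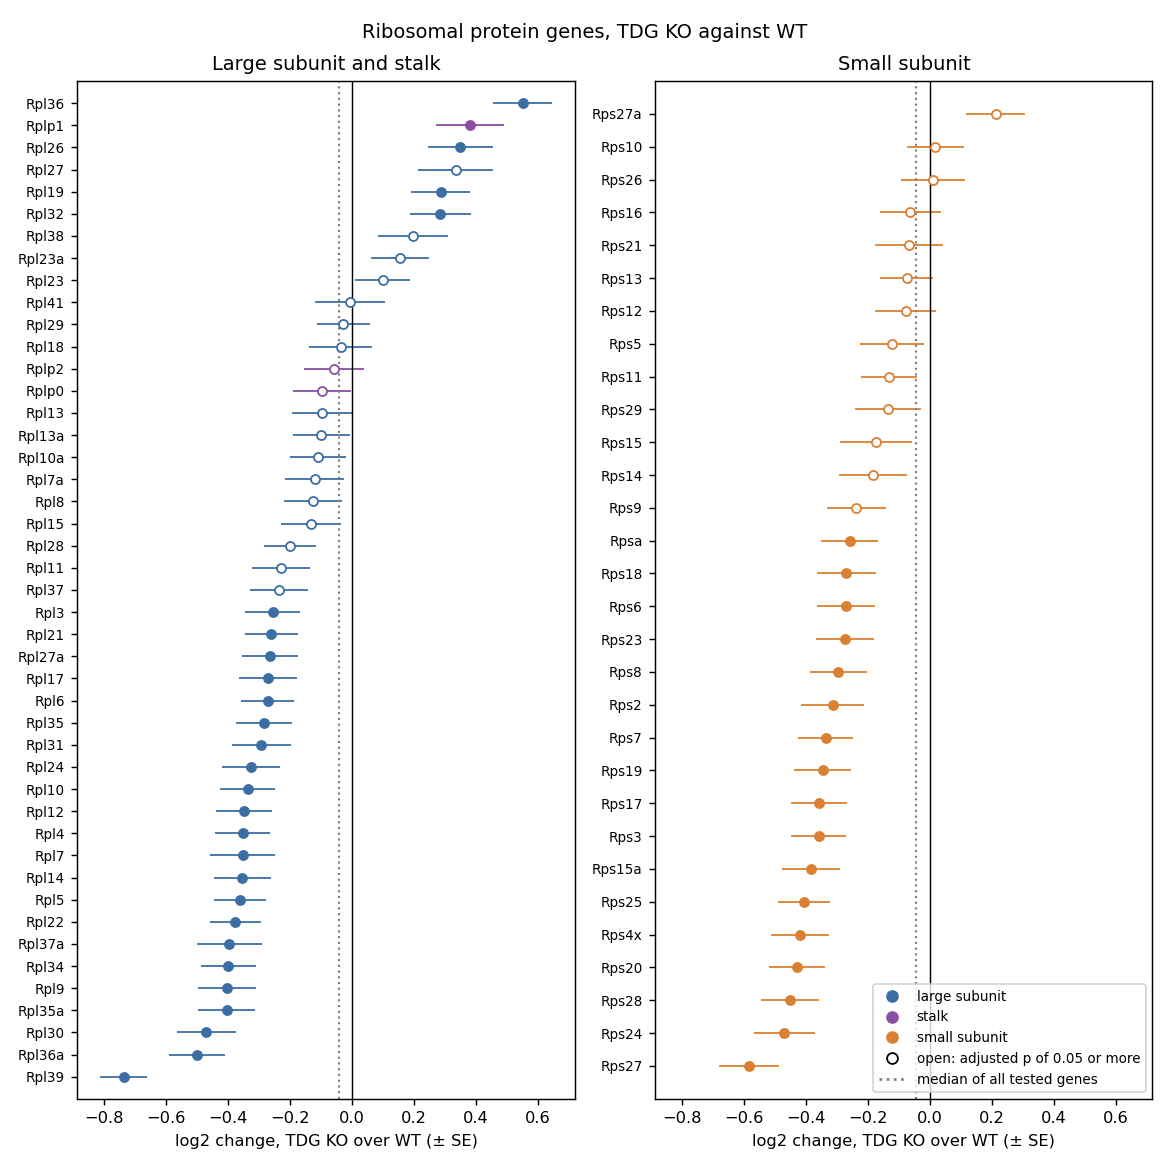
Log2 change of ribosomal protein genes, TDG KO over WT, with the standard error (horizontal axis), for 45 of the 46 large subunit and stalk genes (left; 1 is not reported here) and the 30 small subunit genes (right). Filled points passed the adjusted threshold of 0.05, and most filled points lie left of the dotted line at -0.04, the median of all tested genes.

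Among the large subunit genes, 22 of 43 fell and 4 rose, with a median log2 change of -0.26. Rpl39, a small protein of the exit tunnel through which the nascent chain leaves, fell most. It was at 1178 and 1135 FPKM in WT and at 670 and 717 FPKM in TDG KO, with no overlap, and fell by 40.0% (log2 change -0.74 ± 0.08 SE; limma, Benjamini-Hochberg adjusted p = 0.00042). Its gene lies at chrX:37082518-37085222.

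Rpl36a, also X-linked, encodes a protein near the exit site for transfer RNA. It was at 2104 and 2165 FPKM in WT and at 1426 and 1593 FPKM in TDG KO, and fell by 29.3%. Rpl30, whose product also lies near the subunit interface, was at 2262 and 2111 FPKM in WT against 1488 and 1670 FPKM in TDG KO. For both genes the genotypes did not overlap. Their log2 changes were -0.50 ± 0.09 and -0.47 ± 0.10 (SE), with adjusted p-values of 0.0039 and 0.0062 by limma. Rpl5, which carries the ribosomal 5S RNA together with Rpl11 and with it can bind Mdm2, was called lower at -0.36. Rpl11 was at -0.23 and did not pass (adjusted p = 0.075, limma). Rpl10, an X-linked gene whose product joins late in assembly near the peptidyl transferase centre, was at 2930 and 3028 FPKM in WT and at 2280 and 2435 FPKM in TDG KO, and fell by 20.9%.

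Rpl36 rose most. It was at 1355 and 1270 FPKM in WT and at 1804 and 2044 FPKM in TDG KO, 46.6% higher, with a log2 change of 0.55 ± 0.10 (SE; limma, Benjamini-Hochberg adjusted p = 0.0033). Both TDG KO libraries lay well above both WT libraries. The call was lost without WT replicate 2 alone among the 12 alternative fits (adjusted p = 0.078). Rpl26, which can also bind the 5′ end of p53 messages, was at 3246 and 3467 FPKM in WT and at 4033 and 4522 FPKM in TDG KO (log2 change 0.35 ± 0.10 SE, adjusted p = 0.028 by limma). Rpl19 and Rpl32 were called at 0.28 each, with adjusted p-values of 0.040 and 0.045 by limma, close to the threshold. Rpl27 lay just outside it, at 0.33 and an adjusted p of 0.053 in the same limma test. It was at 1580 and 1813 FPKM in WT against 1945 and 2339 FPKM in TDG KO.

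The 3 stalk genes did not move together. Rplp1, an acidic protein of the stalk's tip, was at 3793 and 3997 FPKM in WT and at 4744 and 5412 FPKM in TDG KO, 30.4% higher (log2 change 0.38 ± 0.11 SE; limma, Benjamini-Hochberg adjusted p = 0.024). It had the highest mean FPKM of all members. Its partner Rplp2 was at 2210 and 2456 FPKM in WT and at 2153 and 2318 FPKM in TDG KO, overlapping, with a log2 change of -0.06 ± 0.10 (SE). Rplp0, the base of the stalk and a common reference gene for PCR, was at 2444 and 2448 FPKM in WT and at 2168 and 2412 FPKM in TDG KO. Its TDG KO libraries were both below WT, 1 of them narrowly, and its log2 change of -0.10 ± 0.09 (SE) did not pass the test (adjusted p = 0.41, limma).

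**Figure D2:**
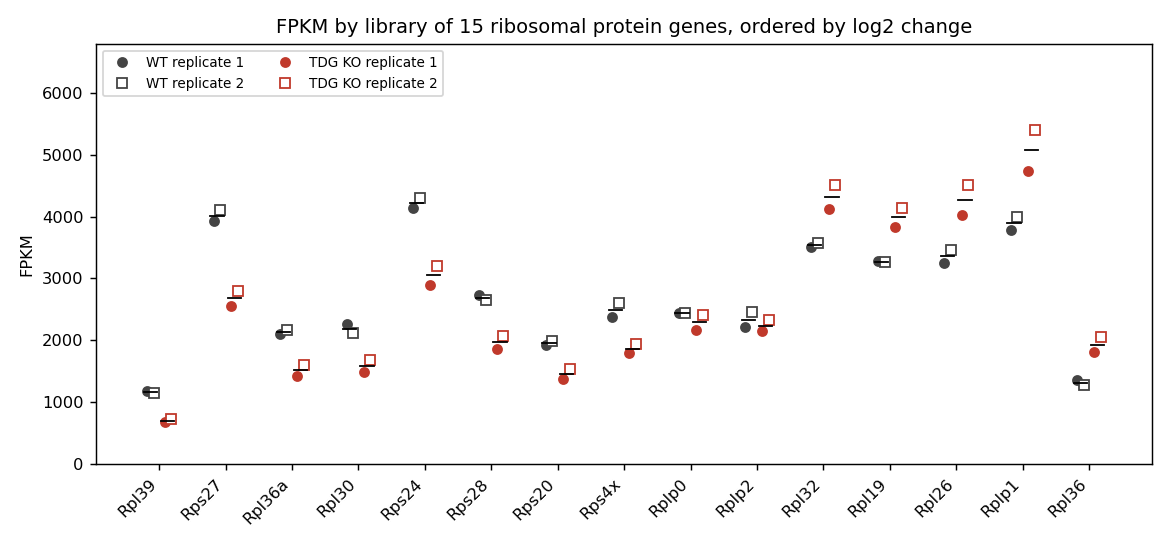
FPKM (vertical axis, linear from 0) of 15 ribosomal protein genes in each library, ordered by log2 change, with WT in grey, TDG KO in red and short lines at the group means (n = 2 each). The genotypes are apart in 14 of these genes, and Rplp2 overlaps. All but Rplp0 and Rplp2 were drawn because they had been called, so their being apart largely follows from that choice.

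Among the small subunit genes, 17 of 30 fell and none rose in the limma test, with a median log2 change of -0.27. At an unadjusted p under 0.05, and as significant in the authors' deposited table, the number higher was also 0. Rps27a was called higher in 4 of the 12 alternative fits: under both other scalings, with the replicate block and without TDG KO replicate 1. Rps27a alone of the 30 had both TDG KO libraries above both WT libraries. Rps27, a zinc finger protein, was at 3925 and 4101 FPKM in WT and at 2561 and 2797 FPKM in TDG KO, and fell by 33.2% (log2 change -0.58 ± 0.10 SE; limma, Benjamini-Hochberg adjusted p = 0.0027). The groups were far apart relative to their replicates.

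Rps24, one of the genes mutated in Diamond-Blackfan anaemia, was at 4147 and 4298 FPKM in WT and at 2896 and 3205 FPKM in TDG KO. Rps28 was at 2726 and 2649 FPKM in WT and at 1863 and 2073 FPKM in TDG KO. Rps20, a protein of the subunit's head, was at 1924 and 1993 FPKM in WT and at 1374 and 1540 FPKM in TDG KO. None of the 3 overlapped between genotypes, and their log2 changes were -0.47, -0.45 and -0.43. Rps4x, the X-linked S4 gene, was at 2377 and 2600 FPKM in WT against 1787 and 1930 FPKM in TDG KO, a fall by 25.3%.

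Rpsa, the S2 protein also known as the laminin receptor, was at 2033 and 2070 FPKM in WT and at 1619 and 1815 FPKM in TDG KO. It passed narrowly, with a log2 change of -0.26 ± 0.09 (SE) and an adjusted p of 0.0496 by limma. Rps18 lay as close to the threshold, and Rpl37 at 0.069 and Rps9 at 0.076 were the nearest outside it among the lower members, together with Rpl11. Rps6, the S6 kinase substrate, was called at -0.27, and Rps19, the gene most often mutated in Diamond-Blackfan anaemia, at -0.35. Rps14 was at -0.18 and did not pass (adjusted p = 0.20, limma).

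Levels spanned a narrow range. By mean over the 4 libraries the lowest members were Rpl37 at 789 FPKM, Rpl29 at 872 FPKM and Rpl39 at 925 FPKM. The highest were Rpl32 at 3933 FPKM, Rpl23a at 4036 FPKM, Rps12 at 4389 FPKM and Rplp1 at 4486 FPKM. Of the 100 tested genes with the highest mean FPKM, 71 were members, and the lowest-ranked member stood at 127. Rpl29 overlapped between genotypes, at a log2 change of -0.03, as did Rps12 at -0.08. Across the 76 genes, which share the same libraries, the log2 change rose weakly with the mean level (Spearman's rho 0.22, Pearson's r 0.28 on log2 level). Of the 19 members with the highest mean level, 4 were called higher and 7 lower.

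The 76 genes made up a large part of the measured message. Their summed FPKM was 26.7% and 26.5% of the total in the WT libraries and 24.3% and 25.4% in the TDG KO libraries, or 26.6 ± 0.186% against 24.9 ± 0.777% (SD, n = 2). The groups did not overlap, but with 2 libraries a group the smallest p of an exact permutation test is 0.33. In that total 3 genes carry the status HIDATA in the authors' deposited table, and their exact 0 values can be failed estimates. Among them Eef1a1 is listed at 0 in all libraries and Hsp90ab1 at 0 in WT only. Without Hsp90ab1 the members' share was 26.7% and 26.5% in WT against 24.4% and 25.5% in TDG KO. All 76 members have the status OK. The median member was at 2241 and 2198 FPKM in WT and at 1811 and 2048 FPKM in TDG KO. The ratio of small subunit to large subunit and stalk FPKM was 0.771 and 0.774 in WT against 0.697 and 0.699 in TDG KO, a log2 difference of -0.15. That difference was -0.08 over the 64 members off chromosomes 6, 11 and X, a set chosen after seeing the data, with 0.971 and 0.971 in WT against 0.918 and 0.917 in TDG KO.

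Within the TDG KO genotype the replicates were themselves apart. All 76 members were higher in TDG KO replicate 2 than in replicate 1, by a median log2 of 0.16, while over all tested genes the median was 0.01. Of the 110 other genes with a mean of at least 500 FPKM, 99 were higher in replicate 2, by a median of 0.11. In WT, 42 of the 76 members were higher in replicate 2, with a median of 0.02. The median change between genotypes, -0.26, was larger than either replicate difference. What set the TDG KO replicates apart was not tested.

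**Figure D3:**
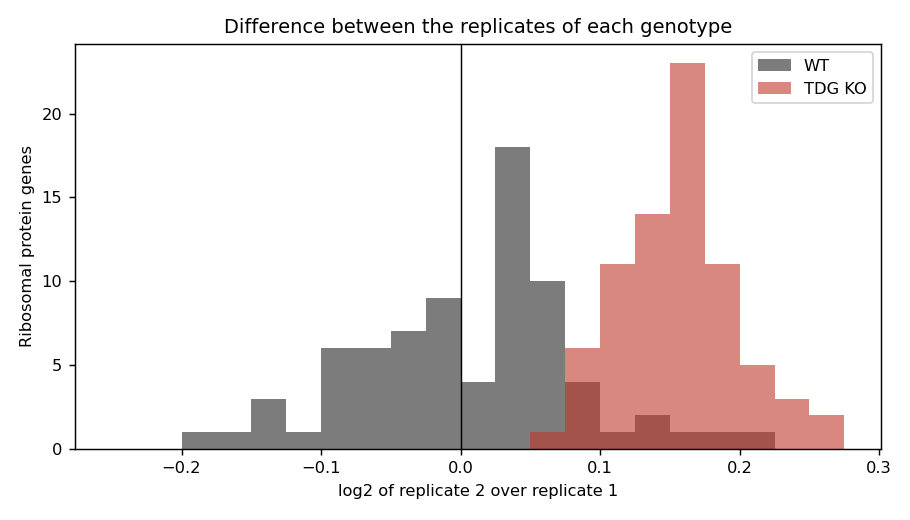
Number of ribosomal protein genes (vertical axis) by log2 of replicate 2 over replicate 1 (horizontal axis), in WT (grey) and TDG KO (red). The WT differences lie on both sides of 0, and all 76 TDG KO differences are above 0.

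Other highly expressed genes had a median nearer to 0, but they include many chromosome 11 genes, all with changes above 0. Among those 110 other genes, which include Rps3a1, 23 were called higher and 36 lower, with a median log2 change of -0.07. The median was not taken without the chromosome 11 genes, so how far it reflects them is not known. Most of the 23 lie on chromosome 11, among them Atp5g1 at 0.90 and Uqcr10 at 0.77. On that chromosome 65.8% of all tested genes other than members were called higher. Hsp90ab1, whose values of 0 in WT can be failed estimates, is also among the 23. No test of the difference between these genes and the members was made. Rps3a1 was at -0.44, among the lower of them. Copies named with -ps summed to 146 to 178 FPKM per library over 270 listed genes, against 152562 to 180397 FPKM for the members. Of the 9 such copies tested, 4 were called lower. Reads that match both a member and a processed copy may have been assigned to either.

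Of the 10 members with both TDG KO libraries above WT, 7 lay on chromosome 11, as many as that chromosome holds. Their log2 changes ran from 0.10 (Rpl23) to 0.35 (Rpl26), and 2 of them, Rpl19 and Rpl26, were called. The 1021 other tested genes of chromosome 11 had a median of 0.38, and 65.8% of them were called higher. Relative to that median Rpl26 was at -0.03 and Rpl19 at -0.09, so neither stood above that median. Rpl38, whose loss in mice alters the skeleton, was at 0.20 and Rpl23a at 0.15, and neither passed. The effect of the genotype and a feature of the line used cannot be told apart here. Within 1 Mb, the other tested genes had a median of 0.22 around Rpl26 and 0.30 around Rpl19. Rpl32 on chromosome 6 was at 0.28, beside medians of 0.04 for the chromosome's other genes and 0.55 for the 13 tested genes within 1 Mb.

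Rpl36 and Rplp1 rose without such surroundings. The 36 tested genes within 1 Mb of Rpl36 on chromosome 17 had a median log2 change of -0.01, and the 9 around Rplp1 on chromosome 9 had -0.23. On the X chromosome all 4 members, Rpl39, Rpl36a, Rps4x and Rpl10, were called lower. Of the other 442 tested genes of that chromosome, 38.5% were called lower and 26.7% higher, with a median of -0.09. The 22 genes around Rpl39 had a median of 0.51, opposite to Rpl39 itself. Off chromosomes 6, 11 and X, 35 of 64 members were lower and 2 higher, with a median of -0.26, beside 3144 lower and 1970 higher of 9935 other genes and a median of -0.08. Chromosome 7 held the most members, 14, of which 5 were called lower, beside 28.7% of its 936 other tested genes.

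**Figure D4:**
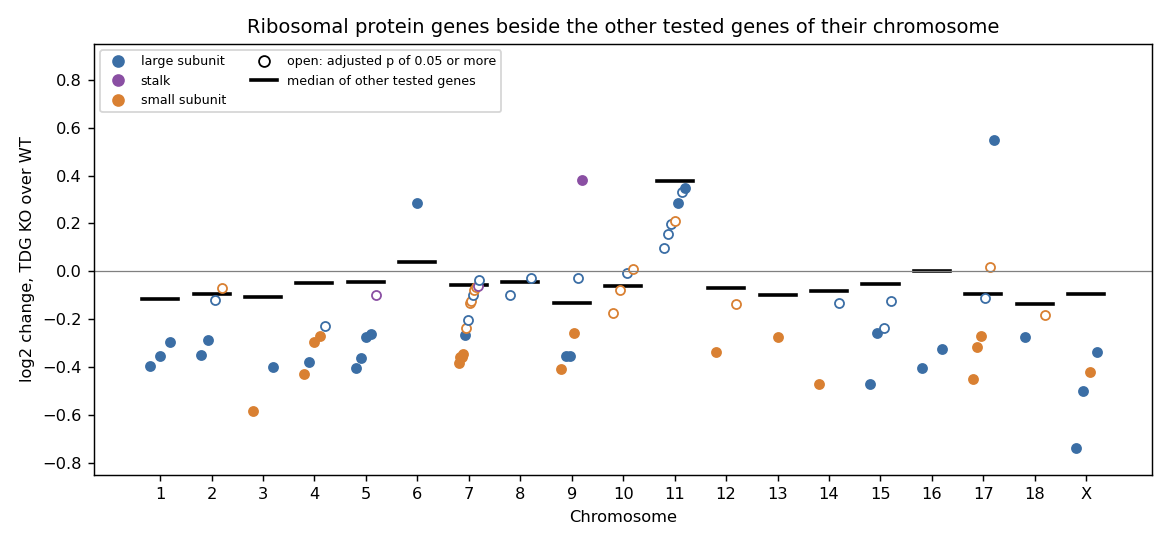
Log2 change of each ribosomal protein gene, TDG KO over WT (vertical axis), by chromosome, with a bar at the median of the other tested genes there. All 7 genes on chromosome 11 are above 0 beside a bar at 0.38, and all 4 on the X chromosome are below 0 beside a bar at -0.09.

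The paralogs with an l after the number, several of them expressed mainly in testis, went in both directions. Of 7 tested, 3 were called higher and 3 lower, while Rpl36al was at -0.15 and not called. Rpl39l, the testis paralog of the member that fell most, was at 13.8 and 12.4 FPKM in WT and at 28.6 and 31.2 FPKM in TDG KO (log2 change 1.13 ± 0.08 SE; limma, Benjamini-Hochberg adjusted p = 9.8e-05). The libraries did not overlap, but in TDG KO Rpl39l remained far below the 670 and 717 FPKM of Rpl39. Rps4l was at 379 and 352 FPKM in WT and at 510 and 583 FPKM in TDG KO, opposite in direction to Rps4x, and Rpl10l was at 0.50, opposite to Rpl10. Rpl7l1 was at -0.54, Rps27l at -0.45 and Rpl22l1 at -0.24, in the direction of Rpl7, Rps27 and Rpl22. Reads shared between paralogs may be split between them.

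Of the ubiquitin fusions and Rack1 (listed as Gnb2l1), a list that also holds Fau and the member Rps27a, none of 4 passed the limma test, and 1 had an unadjusted p under 0.05. Rack1, a scaffold on the small subunit, was at 2236 and 2430 FPKM in WT and at 2518 and 2774 FPKM in TDG KO, without overlap.

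The factors that use the ribosome also fell more often than they rose. Of 38 initiation factors 19 were lower and 8 higher, with a median of -0.20. Eif1ax, the X-linked factor eIF1A that helps find the start codon, was at 164 and 174 FPKM in WT and at 54.6 and 56.5 FPKM in TDG KO, a log2 change of -1.59 ± 0.06 (SE). Eif4g2 at -0.66, Eif4g3 at -0.60 and Eif5 at -0.51 were also called lower. Of 10 elongation factors 8 were tested, of which 4 were lower and 1 higher. Eef1a1, the factor that brings aminoacyl transfer RNA to the ribosome, is listed at 0 in all 4 libraries, with the status HIDATA in the authors' deposited table. Eif5a, on chromosome 11, rose by 0.45, and its homologue Eif5a2 was at -0.45. Eef1b2 was at -0.39.

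Genes that build ribosomes were called in both directions. Of 86 ribosome assembly factors, 25 were higher and 17 lower, with a median of 0.06. Rsl1d1 was at 124 and 131 FPKM in WT and at 217 and 229 FPKM in TDG KO, a log2 change of 0.80 ± 0.07 (SE). Pes1 and Nhp2, both on chromosome 11, were at 0.75 and 0.70, and Bms1, on chromosome 6, was at 0.70. Of 15 subunits and factors of RNA polymerase I, which transcribes ribosomal RNA, 7 were lower and 2 higher, with a median of -0.11. Rrn3, its initiation factor, was at 0.54, Cd3eap at 0.27, Znrd1 at -0.52 and Ttf1 at -0.37.

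Of 17 genes of mTORC1 signalling towards these messages, 5 were higher and 8 lower. Larp1, which binds the pyrimidine tract, was at 53.9 and 53.6 FPKM in WT and at 87.1 and 82.3 FPKM in TDG KO, on chromosome 11 (log2 change 0.64 ± 0.06 SE). Myc, a transcriptional activator of ribosomal genes, was at 13.6 and 14.2 FPKM in WT and at 21.9 and 22.0 FPKM in TDG KO (0.62 ± 0.06 SE). Its paralog Mycn had the higher level and went the other way. Mycn was at 39.9 and 44.7 FPKM in WT and at 32.4 and 35.6 FPKM in TDG KO (-0.31 ± 0.08 SE). Rps6kb2, an S6 kinase, was at -0.69 and Rheb, which activates mTORC1, at -0.57. All of these named genes were called by limma, and their libraries did not overlap between genotypes. Larp1, Myc, Rps6kb2 and Rheb were named because they had been called, so their being apart largely follows from that choice. Over all 12035 tested genes the libraries of the genotypes overlapped in 2556.

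The mitochondrial ribosomal proteins, which serve the separate ribosome of mitochondria, were more often called higher than lower. Of 77 tested, 31 were higher, 8 lower and 38 not called, with a median log2 change of 0.16. Mrps12 was at 33.0 and 28.9 FPKM in WT and at 70.2 and 80.9 FPKM in TDG KO, 1.26 ± 0.09 (SE) on the log2 scale. Mrps23 at 0.97 and Mrps24 at 0.92 lie on chromosome 11, and Mrpl23 at 0.79 lies on chromosome 7. The sign of each list's median was kept in all 12 alternative fits, and the difference between lists was not tested.

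**Figure D5:**
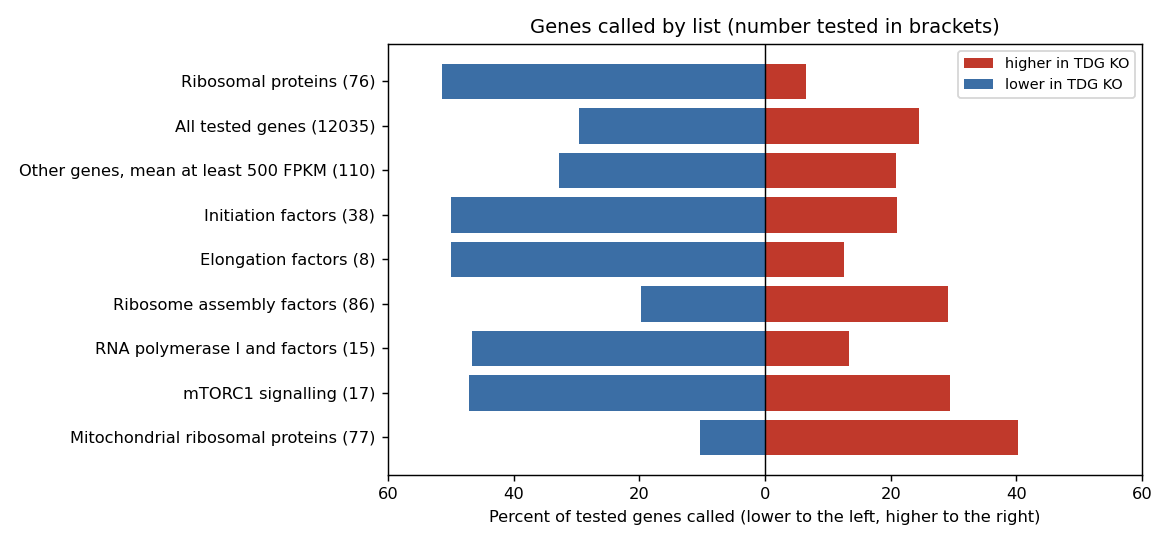
Percent of tested genes called lower (blue, to the left) and higher (red, to the right) in TDG KO, with the number tested in brackets. The cytosolic ribosomal proteins reach 51.3% lower and 6.58% higher, against 29.5% and 24.4% of all tested genes, and the mitochondrial ribosomal proteins reach 10.4% lower and 40.3% higher.

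Markers of other cells moved with genotype as well. Of 25 fibroblast markers tested, which the feeder cells would bring, 15 were lower and 2 higher, with a median of -0.57. That median was -0.26 without WT replicate 1, with 9 lower, and -0.88 without WT replicate 2. Without TDG KO replicate 1 or replicate 2, 4 and 3 Fibroblast markers were called lower. The median was -0.34 with a pseudocount of 5 FPKM, and 4 were lower without a filter. Their sums were 1123 and 836 FPKM in WT and 847 and 920 FPKM in TDG KO, which overlapped, and none of the listed markers was at 0 in any library. Col3a1 was at 57.1 and 29.8 FPKM in WT and at 15.3 and 19.0 FPKM in TDG KO, Dcn was at -1.19, S100a4 at -1.09 and Col6a3 at -0.92. Tagln at 0.85 and Vim at 0.58 were called higher, Acta2 was at 0.28 and Col1a1 at -0.07, and these 4 were named after their values were seen. Stem cell identity genes were present in all libraries, with 5 of 10 lower and 2 higher. Their sums were 7982 and 8780 FPKM in WT and 6139 and 6335 FPKM in TDG KO. Pou5f1 was at -0.56, Dppa5a at -0.56, Sall4 at -0.54 and Utf1 at 0.67. The part of these differences in the members' change was not tested.

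CTCF peaks lay near the starts of about the same members in both genotypes. The authors deposited 1 peak list per library, with 38303 and 37099 peaks for WT and 48514 and 48833 for TDG KO. A peak lay within 1 kb of the start in both WT lists for 22 of 76 members, 28.9% against 15.6% of 11340 tested genes with a known position. In both TDG KO lists it did so for 24 members, 31.6% against 19.6%. In 21 members all 4 lists had a peak, 27.6% against 15.4%, and in 49 no list did, 64.5% against 76.4%. Where RefSeq's promoter table had no entry, either end of the gene stood for the start. With only the 56 members that have an annotated start, 14 had a peak in both lists of each genotype. That was 25% against 14.5% of all such genes in WT and 18.1% in TDG KO. Within 5 kb 45 members had a peak in both WT lists, 59.2% against 35.4% of all genes. In both TDG KO lists 50 did, 65.8% against 42.5%.

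Peaks over the annotated start, with no gap, were found in all 4 lists for Rpl5, Rplp0, Rpl26, Rpl38, Rpl36a and Rps4x, among others. At Rplp0 the WT replicate 1 peak spanned chr5:115559180-115559486, and its score stood at the percentiles 91.8 and 98.4 of the WT lists and 98.6 and 94.9 of the TDG KO lists. The score is the authors', and here it only ranks a peak within its own list. Rpl36 had a peak 734 to 785 bp from a gene end at percentiles from 97.5 to 99. At Rpl26 the percentiles were 90.3 and 71.7 in WT against 99.3 and 90.2 in TDG KO.

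In 2 members a peak was present in both lists of TDG KO and absent from the WT lists: Rpl23a, at percentiles 0.74 and 1.58, and Rps19, at 3.73 and 9.56. These peaks ranked low in lists longer than those of WT. Of the 11340 tested genes with a known position, 184 had that pattern. No member had the reverse pattern in the full lists, and 3 of the 11340 genes did. When each list was limited to its 37099 strongest peaks, 22 members had a peak in both WT lists, 28.9% against 15.5% of the 11340 genes. In both TDG KO lists 19 members did, 25% against 15.8%. Then no member had a peak in the TDG KO lists alone, beside 47 of the 11340 genes. In the WT lists alone 1 member, Rps15, had one, beside 54 genes. In the full list of TDG KO replicate 2 Rps15 did have a peak over its start, at percentile 22.9, which the limit removed. Rps19 messages fell, at 2228 and 2288 FPKM in WT against 1684 and 1871 FPKM in TDG KO, and Rpl23a was not called. The 21 members with a peak in all lists had a median log2 change of -0.18, with 3 higher and 8 lower. The 49 without a peak had -0.27, with 2 higher and 29 lower. No test was made of that difference, and how deeply the CTCF libraries were read is unknown.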

How the data were processed

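The 2 WT and 2 TDG KO RNA libraries were made with a poly(A) message kit, per the labels' protocols. Bowtie2 2.2.9, MACS2 2.2.1, deepTools, Cuffdiff, Cufflinks 2.2.1, TopHat2 2.1.1 and mm10 appear in the submitters' processing notes, without roles. The authors deposited FPKM values per gene and library, per the file headers. The authors' deposited comparison table adds log2 folds of WT over TDG KO, turned in sign here, with p-values and q-values. The authors' peak lists hold a score per peak, of unstated meaning. No counts were used, so the depth is unknown. Totals were 626700 to 681200 FPKM and 20537 to 21776 genes were above 0 per library. For strand use and reads with several matches, the method is not given in the sources consulted.

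The 12035 genes whose mean FPKM was at least 1 were tested on log2(FPKM + 1) by limma 3.58.1 in R 4.3.3, 2-sided, with a trend of variance on level. P-values were adjusted by Benjamini-Hochberg over all tested genes, and the threshold was 0.05. The scale understates the change of low genes. The fit was tested on simulated data. The members and gene lists were chosen with earlier results of these data known. Named genes followed a rule: Tdg, the 8 highest and 8 lowest called members, the 4 highest and 4 lowest by level, 8 members of interest, up to 4 called genes of each list, and members whose CTCF pattern differed. Others were named after their values were seen, and some values of single genes are not reported here. Replicate numbers did not pair the libraries (correlation of deviations -0.02 across tested genes). Peaks count as near a start within 1 kb. Coordinates are mm10, 1-based. Alternatives varied the pseudocount, filter, scaling, trend, replicate block, library left out, chromosome and distance.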

Additional observations from a re-analysis of the deposited data

How the results depend on the processing

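Of the alternatives to the main results, 56 stayed within 1.5 times the count or within the replicate spread and 17 moved. These covered the members' counts, medians, shares and peak counts. No median or share of the members reversed its sign, and counts could not reverse. Without a filter on FPKM 4 members were called, 1 higher and 3 lower, beside 25.8% of all genes, and the median of all tested genes turned to 0.0029. With 1 library left out, where the lone library of a genotype is assumed to vary like the other genotype, 1 to 42 members were called, 0 to 7 higher and 1 to 40 lower, and 40.0% to 44.1% of all genes. The lowest counts came with a WT library left out, where each gene's own spread came from the TDG KO pair alone. The members' median log2 change was then -0.26 without WT replicate 1 and -0.24 without WT replicate 2. Between the TDG KO replicates the members differed by a median log2 of 0.16, against 0.02 in WT. Other causes were not tested. Median scaling on other genes called 34 members, 7 higher and 27 lower. The fit with the replicate block called 50 members, 7 higher and 43 lower. Off chromosomes 6, 11 and X 2 members were higher. The share of summed FPKM differed by -0.10 log2, and the members' median FPKM by -0.20. Relative to the chromosome's other genes Rpl26 turned to -0.030 and Rpl19 to -0.093. Members with a CTCF peak in both WT lists numbered 45 (59.2%) within 5 kb and 14 (25%) with annotated starts only. All genes were at 35.4% and 14.5%. In both TDG KO lists members numbered 50 (65.8%) and 14 (25%), and all genes were at 42.5% and 18.1%. No depth was known, so precision could not be set from counts, and Rpsa, Rps18 and Rpl32 were called close to the threshold.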
